A study of Bos taurus with 96 samples.

Results

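Fatty acid synthesis from acetate was followed through 3 genes, FASN (ENSBTAG00000015980), ACACA (ENSBTAG00000017567) and ACSS2 (ENSBTAG00000013303), which were taken by identifier from the 24616 gene rows of each count file. Liver and semitendinosus muscle biopsies came from 16 Holstein dairy cows, 8 of good genetic merit for calving interval (Fert+) and 8 of poor merit (Fert-). The cows were a mix of animals in early parities, were managed as 1 herd and were not bred during the lactation studied, so the groups differ by breeding value and not by a treatment. Each cow was sampled in late pregnancy (LP), early lactation (EL, around the day after calving) and mid-lactation (ML), which gave 96 libraries, 48 from each tissue, with 16 at each time-point. All 3 genes passed the filter on low counts in every comparison.

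ACSS2, acyl-CoA synthetase short-chain family member, activates acetate in the cytosol to acetyl-CoA. ACACA, acetyl-CoA carboxylase alpha, turns acetyl-CoA into malonyl-CoA, the committed step of fatty acid synthesis, and FASN, fatty acid synthase, joins acetyl-CoA and malonyl-CoA units into palmitate. Ruminants absorb much of their dietary energy as acetate and make most of their fatty acids in adipose tissue and, during lactation, in the mammary gland, while the bovine liver makes little fat and instead takes up fatty acids that adipose tissue releases around calving.

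Library totals ranged from 14966847 to 26358063 counts in liver and from 15279337 to 22018740 in muscle. The 3 genes had between 109 and 5131 counts in a library, so counting error is small beside the spread between cows in liver. In muscle the 2 were not separated. There ACACA at ML had 199 to 285 counts and a coefficient of variation of 8.48%, of which counting error can be a large part. Values are CPM, each count divided by its library total after the scaling of edgeR's trimmed mean of M-values (TMM) and brought to a common total, not corrected for gene length, so that levels are compared between samples and not between genes. Markers fitted the tissue names, with summed hepatocyte markers between 69387 and 217179 CPM in liver and summed skeletal muscle markers between 18428 and 248324 CPM in muscle and at most 0.462 CPM in liver. Each library was compared with the time-point means by its mean squared standardised distance over 300 genes that marked the time-points, with the 3 genes left out. For 4 liver libraries this value was more than 2 times as large for the labelled time-point as for another. The library labelled LP of cow 426 stood nearer EL (mean squared distance 1.92 against 5.002). The libraries labelled EL of cows 426 (0.528 against 2.26) and 3434 (0.413 against 1.90) stood nearer LP. The library labelled ML of cow 996 stood nearer LP in liver (1.12 against 4.22) and in muscle (1.11 against 3.23). Only 8 of the 16 liver EL libraries were nearest to EL, against 12 at LP and 15 at ML, and 14, 16 and 15 in muscle. That of cow 3847 was nearest to EL but lay far from every mean (17.1, 12.9 and 24.6 for LP, EL and ML). The other liver EL libraries were at most 2.48 from the EL mean. No library was reassigned, and values without Fert- cows 426 and 996, a choice made after seeing the data, are given where they matter. That choice rests on distances to the time-point means, so those values can favour larger time differences. Cow 3434, which is Fert+, was kept in those values although its liver EL library stood nearer LP.

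In liver, the median level of all 3 genes was lowest at EL and highest at ML. FASN was at 34.8 CPM at LP (median of 16 cows, lowest 6.98 in cow 426, highest 68.9 in cow 419), at 13.6 CPM at EL (6.58 in cow 430 to 71.2 in cow 33) and at 76.0 CPM at ML (11.4 in cow 996 to 148.3 in cow 33). ACSS2 was at 43.7 CPM at LP (7.68 to 94.1), at 11.0 CPM at EL (5.98 to 93.6) and at 73.9 CPM at ML (13.2 in cow 996 to 189.6 in cow 33). ACACA moved over a narrower range, with a median of 27.1 CPM at LP (14.4 to 104.6, the highest in cow 996), 24.5 CPM at EL (10.6 to 56.9) and 46.6 CPM at ML (26.0 to 113.9). The ranges of the time-points overlapped for each gene, and at EL 9 cows had FASN between 6.58 and 14.8 CPM and 7 between 25.3 and 71.2 CPM. The highest of these was cow 33, whose FASN was 36.3 CPM at LP. In bulk tissue, fewer cells that express a gene and less of its RNA per cell cannot be told apart.

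**Figure D1:**
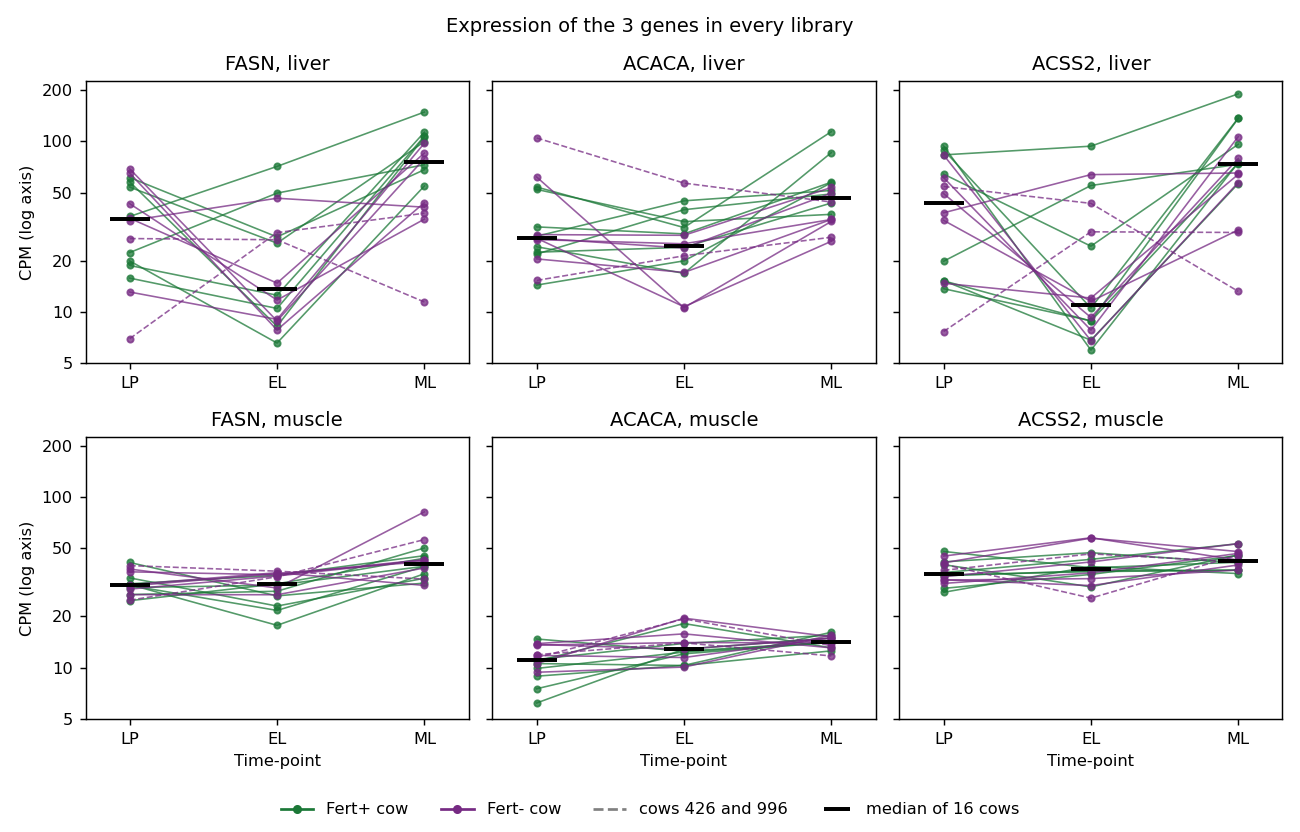
CPM (log axis) of FASN, ACACA and ACSS2 in each of the 96 libraries, liver above and muscle below, at LP, EL and ML. Lines join the libraries of a cow, green for Fert+ and purple for Fert-, dashed for cows 426 and 996, and black bars are medians of 16 cows. Liver FASN had medians of 34.8, 13.6 and 76.0 CPM at LP, EL and ML, while its muscle medians lay between 30.5 and 40.6 CPM on this scale, which library totals alone would move at EL.

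From EL to ML, all 3 genes rose in liver. The quasi-likelihood test of edgeR was applied over the 48 libraries of a tissue, averaged over genotypes, with Benjamini-Hochberg adjustment over all genes tested (called the edgeR adjusted p here, threshold 0.05). FASN rose 3.19-fold (log2 fold change 1.67, SE 0.33, edgeR adjusted p = 0.000140) and was 27th of 13815 genes when ordered by fold change. ACSS2 rose 3.08-fold (log2 fold change 1.62, SE 0.40, edgeR adjusted p = 0.00158) and was 32nd in that order. ACACA rose 1.81-fold (log2 fold change 0.85, SE 0.23, edgeR adjusted p = 0.00338). This contrast was broad, since 38.2% of all liver genes tested passed, 18.1% upwards and 20.2% downwards. Each of the 3 genes passed in all 16 fits that left out a cow in turn, with log2 fold changes from 1.52 to 1.85 for FASN, 0.76 to 0.98 for ACACA and 1.46 to 1.85 for ACSS2, and without cows 426 and 996 they were 1.91, 1.03 and 1.91.

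Within cows the same change was seen in nearly every animal. FASN rose in 14 of 16 cows (mean difference 1.82 ± 1.40 in log2(CPM + 1), SD, n = 16), ACSS2 in 14 (1.97 ± 1.61) and ACACA in 15 (0.89 ± 0.69). By an exact sign-flip permutation test, two-sided and adjusted over the 27 within-cow comparisons, p was 0.00297 for FASN, 0.00297 for ACACA and 0.00302 for ACSS2. All 3 genes were higher at ML than at EL in 13 of 16 cows, 8 of 8 Fert+ and 5 of 8 Fert-, and all 3 were lower in 1 cow only, cow 996, whose library labelled ML stood nearer LP. The study named the 3 genes for a genotype difference in liver at ML, so this split by genotype is no independent evidence. The largest rise was 3.80 in log2 units for ACSS2, in cow 782, and 3.53 for FASN, in cow 756, both Fert+.

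Between LP and EL the liver genes did not pass the edgeR test. FASN differed by -0.68 (log2 fold change EL relative to LP, SE 0.32, edgeR adjusted p = 0.226), ACACA by -0.37 (SE 0.23, edgeR adjusted p = 0.376) and ACSS2 by -0.89 (SE 0.39, edgeR adjusted p = 0.195), in a contrast in which 3.24% of genes passed, 2.27% upwards and 0.977% downwards. That share is unstable, since 5 genes passed without cow 164, 1086 without cow 426 and 0 without batch B, against 448 in all. Batch B is a name given here to 13 libraries that differ in which rarely counted genes have counts. It was inferred from the counts, and the sample labels name no batch. ACSS2 passed the within-cow exact test, lower at EL in 12 of 16 cows (mean difference -1.06 ± 1.68, adjusted exact p = 0.0391). The largest fall of ACSS2, -3.77, was in cow 3847, whose EL library lay far from every time-point mean. FASN was also lower in 12 cows (-0.76 ± 1.42, adjusted exact p = 0.0704), and ACACA in 11 (-0.29 ± 0.81, adjusted exact p = 0.211). All 3 genes were lower at EL in 10 cows and higher in 3, namely cows 33, 3434 and 426.

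The cows whose labels are in doubt bear on this comparison. Cows 426 and 996 were picked because libraries of theirs stood nearer another time-point than their label. Leaving them out therefore favours larger time differences, and the values without them are no independent support. In cow 426 FASN went from 6.98 CPM in the library labelled LP to 29.2 CPM in that labelled EL. Without cows 426 and 996, FASN differed by -0.92 (edgeR adjusted p = 0.0739) and ACSS2 by -1.11 (edgeR adjusted p = 0.0915), and with the cow as a block as well, FASN fell by 1.11 on the log2 scale (edgeR adjusted p = 0.0343) and ACSS2 by 1.37 (edgeR adjusted p = 0.0268). ACACA did not pass in either fit (edgeR adjusted p = 0.231 and 0.224). The within-cow mean of FASN was then -1.01 (adjusted exact p = 0.0210). Without cow 3434 alone the log2 fold changes were -0.82, -0.43 and -1.07 for FASN, ACACA and ACSS2, and no call changed.

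From LP to ML, FASN was the only 1 of the 3 genes called in liver, 1.99-fold higher at ML (log2 fold change 0.99, SE 0.32, edgeR adjusted p = 0.0352), where 12.5% of genes passed, 7.41% upwards and 5.05% downwards. This call was lost in 7 of the 16 fits that left out a cow, with log2 fold changes from 0.83 without cow 1179 (edgeR adjusted p = 0.0890) to 1.10 without cow 3847; the other 6 were those without cows 164, 33, 3434, 3445, 426 and 782. ACACA differed by 0.48 (SE 0.23, edgeR adjusted p = 0.163), and passed with the cow as a block (0.61, edgeR adjusted p = 0.0241), without cow 996 (0.66, edgeR adjusted p = 0.0193) and without cows 426 and 996 (0.64, edgeR adjusted p = 0.0410). ACSS2 differed by 0.73 (SE 0.39, edgeR adjusted p = 0.227). Within cows all 3 genes passed the exact test, with mean differences of 1.06 ± 1.22 for FASN (adjusted exact p = 0.0111), 0.60 ± 0.86 for ACACA (0.0291) and 0.91 ± 1.27 for ACSS2 (0.0269), and all 3 were higher in 11 of 16 cows.

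**Figure D2:**
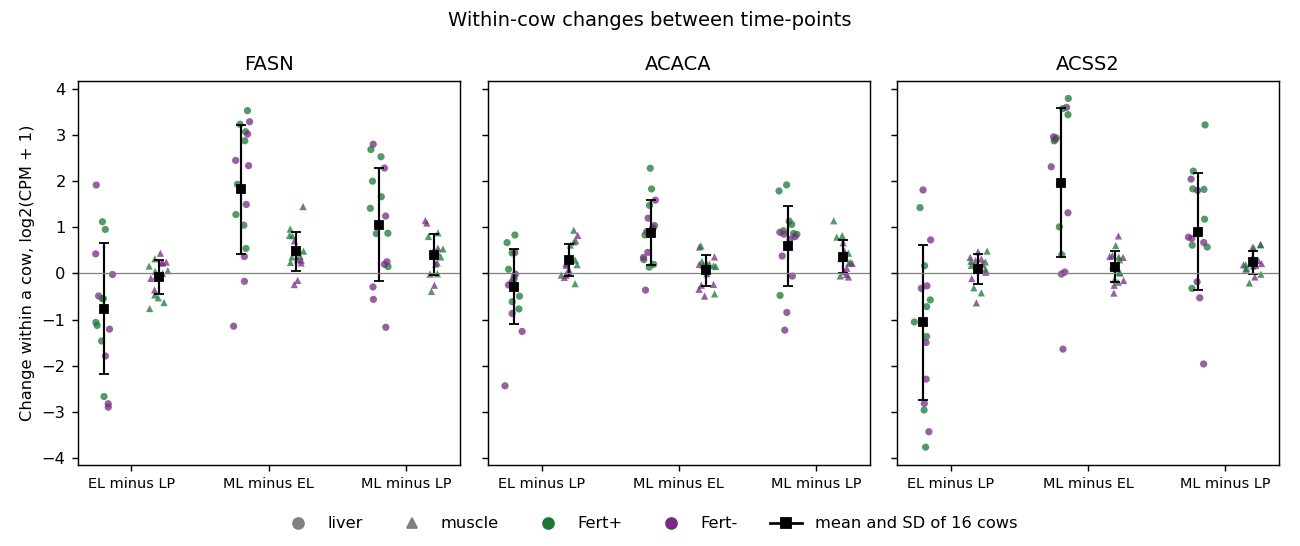
Within-cow changes in log2(CPM + 1) between time-points for each gene, circles for liver and triangles for muscle, green for Fert+ and purple for Fert-, with squares and bars for the mean and SD of 16 cows. Liver changes from EL to ML averaged 1.82 for FASN, 0.89 for ACACA and 1.97 for ACSS2, and muscle changes on this TMM scale averaged 0.48, 0.07 and 0.15 (0.08, -0.32 and -0.26 on library totals alone).

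The 3 genes varied far more between cows in liver than in muscle. The highest liver level of FASN was 9.88 times the lowest at LP, 10.8 times at EL and 13.0 times at ML, against 1.67, 2.08 and 2.70 times in muscle. For ACSS2 the liver ratios reached 12.2, 15.7 and 14.4, against 1.74, 2.26 and 1.50 for muscle. These liver ratios rest in part on cows 426 and 996, without which they were 5.27, 10.8 and 4.24 for FASN and 6.87, 15.7 and 6.27 for ACSS2. The coefficient of variation of ACACA between cows reached 66.1%, 45.6% and 44.8% in liver, but 21.1%, 22.1% and 8.48% in muscle, and without both cows 44.9%, 39.8% and 44.4% in liver.

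In muscle, FASN had a median of 30.5 CPM at LP (24.7 to 41.4), 30.8 CPM at EL (17.7 to 36.8) and 40.6 CPM at ML (30.4 to 82.0, the highest in cow 1000). ACACA was at 11.1 CPM at LP (6.22 to 14.8), 12.9 CPM at EL (10.1 to 19.5) and 14.1 CPM at ML (11.7 to 16.2). ACSS2 was at 35.5 CPM at LP (27.7 to 48.1), 37.8 CPM at EL (25.6 to 57.8) and 42.3 CPM at ML (35.7 to 53.4). No muscle median was lowest at EL on this scale, unlike the liver medians, and the ranges of the time-points overlapped. The liver differences between LP and EL had not passed the edgeR test.

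Directions in muscle that involve EL depend on the scaling. Summed skeletal muscle markers had a median of 186667 CPM at LP, 58279 CPM at EL and 207871 CPM at ML, and the median TMM factor was 0.927, 1.22 and 0.883. Scaling by library totals alone, an alternative chosen after seeing the data, moved the median log2 fold change of all muscle genes by 0.37 between LP and EL and by -0.42 between EL and ML, against at most 0.08 in liver. Muscle changes are therefore given on both scales.

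From LP to EL, ACACA rose 1.25-fold on the TMM scale (log2 fold change 0.32, SE 0.09, edgeR adjusted p = 0.00286; 0.69 on library totals alone), in a contrast in which 53.9% of genes passed, 29.1% upwards and 24.8% downwards. FASN differed by -0.07 (SE 0.10, edgeR adjusted p = 0.557) and by 0.32 on library totals alone (edgeR adjusted p = 0.0169), so its sign changed. ACSS2 differed by 0.11 (SE 0.09, edgeR adjusted p = 0.291) on the TMM scale and by 0.49 on library totals alone (edgeR adjusted p = 2.58e-05).

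From EL to ML, FASN rose 1.43-fold in muscle on the TMM scale (log2 fold change 0.52, SE 0.10, edgeR adjusted p = 2.40e-05), in 14 of 16 cows, but differed by 0.07 on library totals alone (edgeR adjusted p = 0.620). Here 59.4% of genes passed, 28.5% upwards and 31% downwards. ACACA differed by 0.05 (SE 0.09, edgeR adjusted p = 0.624) and ACSS2 by 0.13 (SE 0.09, edgeR adjusted p = 0.221) on the TMM scale, and on library totals alone both turned lower, at -0.38 (edgeR adjusted p = 0.00157) and -0.30 (edgeR adjusted p = 0.00660).

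The comparison of ML with LP, which the scaling moved by only -0.05, was called for FASN and ACACA in muscle. FASN was 1.36-fold higher at ML (log2 fold change 0.44, SE 0.10, edgeR adjusted p = 0.00446) and ACACA 1.30-fold higher (0.37, SE 0.09, edgeR adjusted p = 0.00808; 0.31 and edgeR adjusted p = 0.0718 on library totals alone), where 6.08% of genes passed, 2.46% upwards and 3.62% downwards. ACSS2 differed by 0.24 (SE 0.09, edgeR adjusted p = 0.104) and passed with the cow as a block (0.25, edgeR adjusted p = 0.0424), a fit that called 1190 genes in place of 771. By the within-cow exact test all 3 genes were higher at ML than at LP, with mean differences of 0.41 ± 0.44 (adjusted exact p = 0.00824), 0.36 ± 0.35 (0.00297) and 0.24 ± 0.25 (0.00546) for FASN, ACACA and ACSS2.

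Markers of other cells had counts in the biopsies, and some of their sums moved between time-points. For adipocytes, leukocytes and erythroid cells these sums give no share of RNA, since no such tissue was sequenced beside them. Summed adipocyte markers in muscle (4 genes: ADIPOQ, FABP4, CIDEC and TUSC5) had medians of 6.64 CPM at LP (2.06 to 41.2), 7.07 CPM at EL (1.22 to 38.6) and 16.3 CPM at ML (3.43 to 79.0), and were thus higher at ML, as FASN was. Across cows within a time-point, FASN and this sum gave Pearson r of 0.52 at LP, 0.28 at EL and -0.04 at ML (rho 0.57, 0.42 and 0.08, adjusted permutation p = 0.145, 0.510 and 0.916, 36 relations). ACACA and the sum gave r = 0.64 at LP (rho 0.65, adjusted permutation p = 0.0421). Without the 2 cows farthest from the median of the adipocyte sum, r was 0.79. On CPM without logs this relation was not called (adjusted permutation p = 0.255). In liver, ADIPOQ and TUSC5 had a median of 0 CPM at each time-point and the adipocyte sum, with medians of 1.80 to 2.62 CPM, was mostly CIDEC. Hepatocyte markers in muscle had a median of 2.80, 2.84 and 11.5 CPM, and the highest sum, 165.3 CPM at ML, was 0.238% of the lowest liver sum, which at the highest liver level would bring at most 0.353 CPM of FASN. Leukocyte markers in liver had a median of 2.64 CPM at EL, with a highest sum of 135.0 CPM, against highest sums of 8.25 CPM at LP and 4.51 CPM at ML, and erythroid markers reached 20.7 CPM in liver and 5.92 CPM in muscle. The part of RNA from other cells in the values of the 3 genes was not tested.

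Liver exceeded muscle in ACACA at each time-point, and FASN and ACSS2 were lower in liver than in muscle at EL. In a fit over all 96 libraries with common scaling, ACACA was 3.01-fold, 1.82-fold and 3.28-fold higher in liver at LP, EL and ML (edgeR adjusted p = 1.92e-13, 5.97e-06 and 7.39e-15). These comparisons say little by themselves, since 87.2%, 87.8% and 86.5% of genes passed. FASN did not pass at LP (log2 difference liver minus muscle 0.13, SE 0.24, edgeR adjusted p = 0.605), was lower in liver at EL (-0.51, SE 0.24, edgeR adjusted p = 0.0441) and higher at ML (0.70, SE 0.24, edgeR adjusted p = 0.00539). ACSS2 likewise gave 0.26 at LP (SE 0.29, edgeR adjusted p = 0.401), -0.77 at EL (SE 0.29, edgeR adjusted p = 0.0112) and 0.77 at ML (SE 0.29, edgeR adjusted p = 0.0110). Scaling by library totals alone kept the directions and calls of all 3 genes in these comparisons, and ACSS2 at ML was not called without a gene filter (0.60, edgeR adjusted p = 0.0586). The fit has no cow term, and by the exact sign-flip permutation test within cows FASN at ML was not called (mean difference 0.58 ± 1.02, higher in liver in 11 of 16 cows, adjusted exact p = 0.0530), while at EL FASN (-0.82, lower in 13 cows, 0.0198) and ACSS2 (-1.28, lower in 12, 0.00659) and at ML ACSS2 (0.59, higher in 13, 0.0379) were.

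The change from EL to ML differed between the tissues for all 3 genes. The liver change exceeded the muscle change by 1.21 for FASN (SE 0.34, edgeR adjusted p = 0.00311), 0.85 for ACACA (SE 0.25, edgeR adjusted p = 0.00470) and 1.54 for ACSS2 (SE 0.41, edgeR adjusted p = 0.00173) on the log2 scale, where 35.9% of genes passed and 20.7% passed in this direction. From LP to EL the difference was -0.72 for ACACA (SE 0.25, edgeR adjusted p = 0.0232), -1.02 for ACSS2 (SE 0.41, edgeR adjusted p = 0.0530) and -0.64 for FASN (SE 0.34, edgeR adjusted p = 0.167), where 25.7% passed. ACSS2 passed with the cow as a block (-1.09, edgeR adjusted p = 0.0350) and without cows 426 and 996 (-1.29, edgeR adjusted p = 0.0227), and ACACA no longer did without a gene filter (-0.64, edgeR adjusted p = 0.0674). From LP to ML none of the 3 genes differed between tissues by the test (log2 differences 0.57, 0.12 and 0.51, edgeR adjusted p = 0.331, 0.845 and 0.501), where 7.32% of genes passed.

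Ordered by mean log2(CPM + 1) under the common scaling, FASN was highest in liver at ML, followed by muscle at ML, LP and EL and by liver at LP and EL. ACSS2 was highest in liver at ML, followed by muscle at ML, EL and LP and by liver at LP and EL. ACACA had the 3 liver time-points above the muscle ones, in the order ML, LP and EL in liver and ML, EL and LP in muscle. For none of the 3 genes did neighbours in this order differ by more than the SD of their within-cow difference. The nearest to it was ACACA in liver at EL over muscle at ML, 0.67 against an SD of 0.68 and higher in 14 of 16 cows.

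FASN and ACSS2 varied together across cows in liver at each time-point. Their log2(CPM + 1) values gave Pearson r of 0.90 at LP, 0.86 at EL and 0.89 at ML (rho 0.85, 0.63 and 0.78, n = 16), with adjusted permutation p of 0.000360, 0.00120 and 0.000900 for r and 0.00126, 0.0572 and 0.00624 for rho over 36 relations. Without the 2 cows farthest from the median of FASN, r was 0.85, 0.75 and 0.75. At EL the cows lay on both sides of the gap in FASN between 14.8 and 25.3 CPM, and the rank correlation there did not pass.

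ACACA was less closely tied to the others. With ACSS2 it gave r of 0.74 at LP, 0.62 at EL and 0.35 at ML (rho 0.84, 0.48 and 0.41, adjusted permutation p = 0.00585, 0.0510 and 0.366 for r and 0.00126, 0.166 and 0.266 for rho, and r = 0.85, 0.54 and 0.24 without the 2 farthest cows). With FASN it gave r of 0.61, 0.68 and 0.36 (rho 0.76, 0.62 and 0.49, adjusted permutation p = 0.0510, 0.0300 and 0.366 for r and 0.00927, 0.0634 and 0.160 for rho, and r = 0.50, 0.56 and 0.56 without the 2 farthest cows). The relation of FASN and ACACA at LP passed without cows 426 and 996 (r = 0.82, adjusted permutation p = 0.00204), and that at EL did not without batch B (r = 0.57, adjusted permutation p = 0.179). None of the 9 pairs in muscle passed (r from -0.55 to 0.44), and no gene's level in liver was related to its level in muscle by the test (r from -0.43 to 0.41, smallest adjusted permutation p = 0.283).

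**Figure D3:**
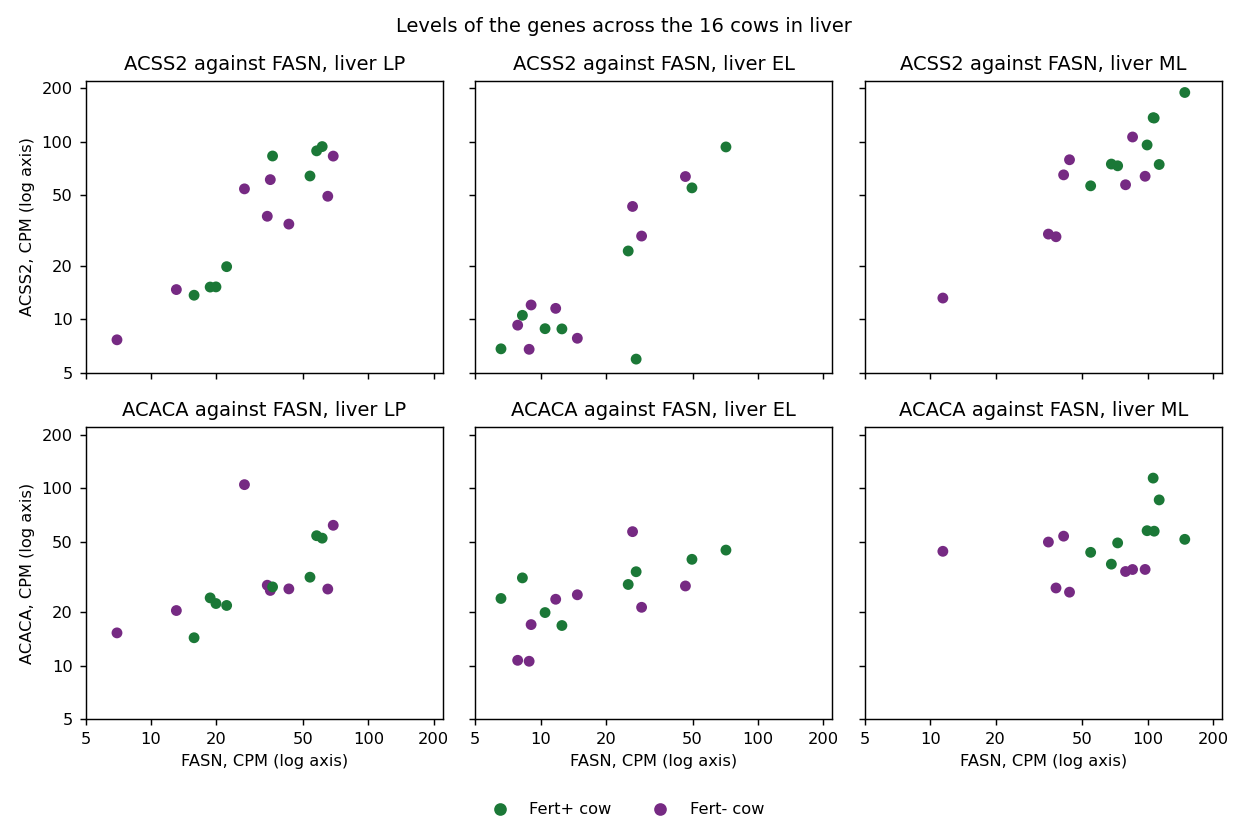
CPM of ACSS2 (upper row) and ACACA (lower row) against that of FASN in liver, both axes log, 1 point per cow, green for Fert+ and purple for Fert-, at LP, EL and ML. ACSS2 followed FASN (r = 0.90, 0.86 and 0.89) and ACACA less closely (r = 0.61, 0.68 and 0.36), and at EL 9 cows lie below 14.8 CPM of FASN and 7 above 25.3 CPM.

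Among all liver genes, those most like the 3 genes over the 48 libraries included other genes of fatty acid and sterol synthesis. Likeness was the Pearson r of log2(CPM + 1) with the mean of the standardised values of the 3 genes, a description that also carries the shared time course and any shared genotype difference. Of the 8 highest of 13812 genes, 4 had a known symbol: SCD, the delta-9 desaturase (r = 0.89), HMGCS1, a cytosolic synthase of sterol synthesis (0.87), MBOAT2, a lysophospholipid acyltransferase (0.86), and PNPLA3, a lipid droplet protein (0.86). DHCR7, an enzyme of sterol synthesis (0.86), and THRSP, the thyroid hormone responsive protein of lipogenic tissues (0.83), came next among genes with a symbol. The pairs among the 3 genes themselves gave 0.70 for FASN and ACACA, 0.92 for FASN and ACSS2 and 0.71 for ACACA and ACSS2. In muscle these were 0.40, 0.27 and -0.16, so the mean of the 3 genes describes no common course there. The highest r in muscle was 0.64, and of the first 40 genes, 8 of which had a symbol, SCD (0.54) was in the pathway lists.

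The other genes of the pathway came from 6 lists, of which only identifiers with a symbol could be tested, 27 in liver and 24 in muscle. These symbols come from the study's own lists of DE and abundant genes, so the genes are no sample of the pathway. IDH1, a cytosolic source of NADPH and the only supply gene with a symbol, differed by -0.27 in liver from EL to ML (edgeR adjusted p = 0.216). In that comparison 12 genes rose and 6 fell, 44.4% and 22.2% against 18.1% and 20.2% of all genes, with a median log2 fold change of 0.47 against -0.01 over all genes, so that the share that fell was near that of all genes. Of 5 genes for desaturation and elongation, SCD rose by 2.30 (SE 0.52, edgeR adjusted p = 0.000672), SCD5, a further desaturase, by 0.77 and TECR, an elongation reductase, by 0.58, and ELOVL5, the elongase of polyunsaturated fatty acids, fell by 0.76. Of 6 genes for activation and esterification, PNPLA3 rose by 1.48 and ACSL4 by 0.50, and ACSL1, a long-chain acyl-CoA synthetase, fell by 0.78. THRSP rose by 1.62, and of 6 sterol genes 4 rose and none fell, HMGCS1 by 1.15 and DHCR7 by 0.87 among them. Of 7 genes for fatty acid oxidation and ketogenesis, 4 fell and 1 rose: ANGPTL4, a lipoprotein lipase inhibitor induced in fasting, fell by 2.01 (SE 0.35, edgeR adjusted p = 3.64e-05), ACADVL and HADHA, enzymes of mitochondrial beta-oxidation, fell by 0.60 and 0.46, and ACAA2, a thiolase of the same pathway, rose by 0.50.

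From LP to EL in liver, 2 of the 27 genes fell and none rose (7.41% against 0.977% of all genes, median log2 fold change -0.46 against 0.02). They were ACSL5, which fell by 0.52 (edgeR adjusted p = 0.0345), and DGAT2, the acyltransferase of the last step of triglyceride synthesis, which fell by 0.56 (edgeR adjusted p = 0.0454). SCD differed by -1.27 (edgeR adjusted p = 0.147), in the direction of FASN and ACSS2 and also without passing. Without cows 426 and 996, 5 fell and 1 rose (18.5% and 3.7% against 2.53% and 5.47% of all genes). From LP to ML, 2 rose and 6 fell (7.41% and 22.2% against 7.41% and 5.05% of all genes; 1 and 3 without cows 426 and 996), SCD5 (0.50) and ACSL4 (0.63) in the first direction and ELOVL5 (-1.14), ACSL1 (-0.90) and ANGPTL4 (-1.78) in the second.

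In muscle from EL to ML, 4 of the 5 desaturation and elongation genes rose, and no gene of activation, esterification or oxidation did. SCD rose by 1.78, TECR by 1.003, FADS2, the delta-6 desaturase, by 0.96 and SCD5 by 0.92, and these 4 passed on library totals alone too (1.37, 0.59, 0.52 and 0.50), where FASN did not. LPIN1, a phosphatidate phosphatase, fell by 2.59, ACSL4 by 2.10, ACSL1 by 0.57, PDK4, the kinase that shuts off pyruvate dehydrogenase, by 2.49 and MID1IP1, a partner of ACACA, by 1.11, on both scales. In all, 8 of 24 genes rose and 6 fell on the TMM scale, and 6 rose and 10 fell on library totals alone. These are 33.3% and 25% against 28.5% and 31% of all muscle genes on the first scale, and 25% and 41.7% against 8.36% and 60.3% on the second. From LP to EL, 7 rose and 9 fell on the TMM scale and 11 rose and 4 fell on library totals (29.2% and 37.5% against 29.1% and 24.8% of all genes, and 45.8% and 16.7% against 57.6% and 7.17%), with TECR (-0.77), SCD5 (-1.14) and FADS2 (-0.83) lower on both scales. From LP to ML, SCD rose by 1.04 and LPIN1 and PDK4 fell by 0.83 and 0.92.

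**Figure D4:**
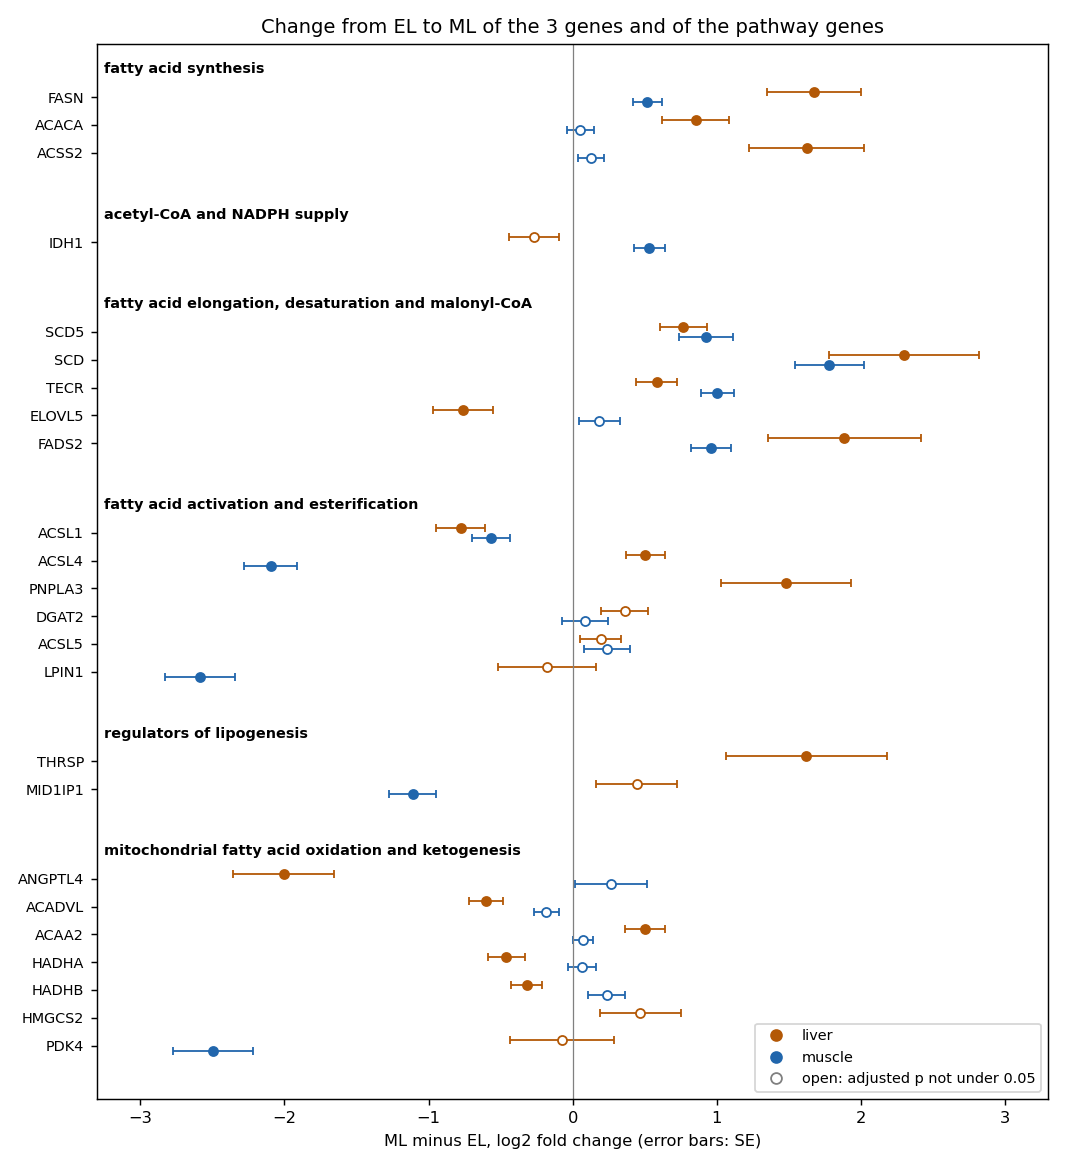
Log2 fold change from EL to ML (x axis, bars SE, edgeR quasi-likelihood fit over 48 libraries, TMM scale) of the 3 genes and the pathway genes with a symbol other than sterol genes, orange for liver and blue for muscle, open points where the adjusted p was not under 0.05. Liver FASN (1.67) and ACSS2 (1.62) lie near SCD (2.30) and THRSP (1.62), and on library totals alone the muscle values lie lower, FASN at 0.07.

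The study named the 3 genes for a genotype difference in liver at ML, so the following contrast describes the choice and is no independent evidence. At ML, Fert+ cows had a median of 102.8 CPM of FASN (54.7 to 148.3), and Fert- cows had 42.4 CPM (11.4 to 97.4). ACACA was at 54.3 CPM (37.3 to 113.9) and 34.8 CPM (26.0 to 53.6), and ACSS2 at 85.5 CPM (56.5 to 189.6) and 60.7 CPM (13.2 to 106.5). The groups overlapped for each gene, with 8 of 8 Fert+ cows above the Fert- median for FASN and ACACA and 7 of 8 for ACSS2. The log2 fold changes, Fert+ relative to Fert-, were 0.83 for FASN (SE 0.33), 0.71 for ACACA (SE 0.22) and 0.91 for ACSS2 (SE 0.35), and none was called by edgeR's quasi-likelihood test (adjusted p = 0.331, 0.253 and 0.328). In that contrast 0% of 13235 genes passed, with 1640 at an unadjusted p under 0.05, and DESeq2 called 65. With 1 common dispersion for all genes, as the study's methods name it, edgeR's exact test called all 3 (adjusted p = 0.00203, 0.0196 and 0.000428).

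The exact permutation test over the 12870 arrangements of the 16 cows gave p = 0.0127 for FASN, 0.00948 for ACACA and 0.0176 for ACSS2, and 0.157, 0.157 and 0.158 after adjustment over 36 comparisons. Cows 426 and 996 are both Fert- (cow 3434, whose EL library stood nearer LP, is Fert+), and cow 996 had the lowest FASN and ACSS2 of all at ML. Without them the log2 fold changes were 0.60, 0.68 and 0.65 and the exact permutation p 0.0509, 0.0256 and 0.0739 before adjustment.

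At the other time-points and in muscle the genotypes did not differ by the test in any of the 3 genes. In liver the log2 fold changes at LP were -0.03, -0.32 and 0.21 for FASN, ACACA and ACSS2 (SE 0.43, 0.39 and 0.53), and at EL they were 0.46, 0.31 and 0.23 (SE 0.51, 0.30 and 0.64). In muscle they lay between -0.34 and 0.02. The largest was FASN at EL, 26.7 ± 5.61 CPM for Fert+ against 33.5 ± 3.55 CPM for Fert- cows (SD, n = 8 each; log2 fold change -0.34, SE 0.13, edgeR adjusted p = 0.313), the reverse of its direction in liver at ML. Its exact permutation p was 0.0131, and 0.157 after adjustment. At an edgeR adjusted p under 0.05, 0% of genes passed at LP and EL in liver and at LP and ML in muscle (842, 1530, 800 and 918 at an unadjusted p under 0.05, and 0, 6, 27 and 10 by DESeq2), and 0.00831% at EL in muscle.

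**Figure D5:**
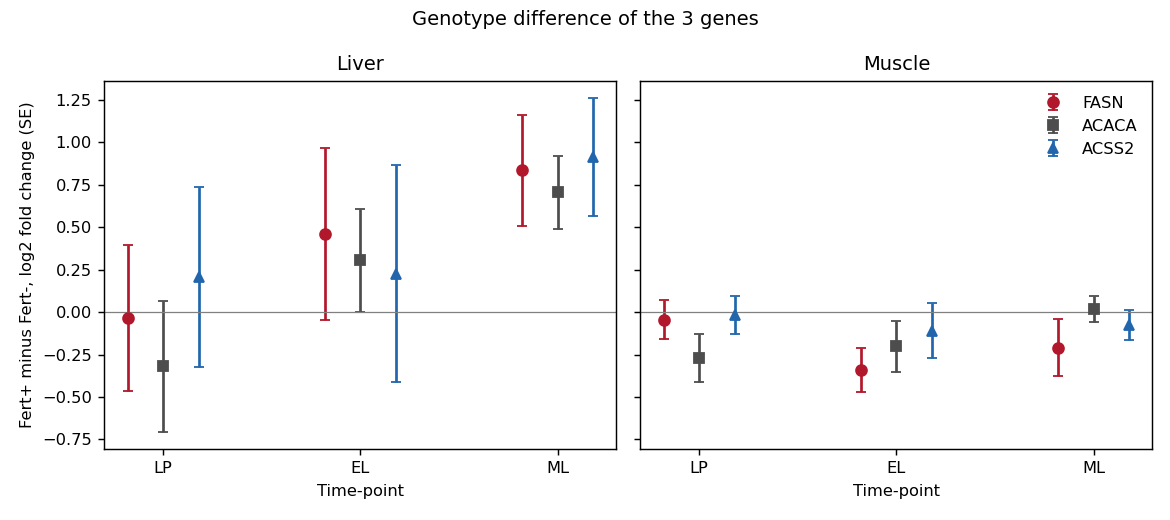
Log2 fold change, Fert+ relative to Fert-, of FASN, ACACA and ACSS2 at each time-point in liver (left) and muscle (right), bars SE, from the fit over the 16 libraries of a tissue and time-point. Only liver at ML, with 0.83, 0.71 and 0.91, has all 3 genes more than 2 SE from 0, and none passed the adjusted threshold. The study named the 3 genes for that difference, so its standing out is no independent evidence.

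Whether the genotype difference depended on the time-point was tested by interaction terms, and none of the 3 genes passed in either tissue. Liver values below that involve ML reuse the difference for which the study named the genes, so their size and direction are no independent evidence. In liver the genotype difference at ML exceeded that at LP by 0.88 for FASN (SE 0.64), 1.03 for ACACA (SE 0.46) and 0.71 for ACSS2 (SE 0.78), each with an edgeR adjusted p of 0.9996, where 0% of genes passed, 328 had an unadjusted p under 0.05 and DESeq2 called 0. From EL to ML the values were 0.38, 0.40 and 0.70 (SE 0.64, 0.46 and 0.78) and from LP to EL 0.49, 0.63 and 0.02 (SE 0.64, 0.46 and 0.78), also with 0% of genes passing (912 and 1495 at an unadjusted p under 0.05, and 0 and 5 by DESeq2). By the exact permutation test on within-cow changes, the rise of ACACA from LP to ML was 1.01 ± 0.73 in Fert+ and 0.19 ± 0.83 in Fert- cows (n = 8 each, exact p = 0.0549, adjusted 0.395). In muscle the interactions lay between -0.29 and 0.29 with SE of 0.18 to 0.20, and the share of genes passing was 0.00789% from LP to EL and 0% otherwise (873 and 350 at an unadjusted p under 0.05, and 10 and 0 by DESeq2).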

How the data were processed

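RNA from 96 biopsies was made into poly(A)-selected libraries with the Illumina TruSeq RNA kit v2 and sequenced as paired ends. The deposited values are raw counts: after Trimmomatic, the authors used STAR on the bovine genome UMD3.1 and featureCounts for the read pairs of each Ensembl gene. The submitters' processing notes also name CASAVA 1.8 and edgeR. The per-sample count files were used. The 96 columns of the 2 series-wide tables carry other names and were not used.

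Groups, cow numbers and time-points came from the sample titles. Genes were filtered with filterByExpr, scaled by TMM and tested with edgeR 4.0.16's robust quasi-likelihood test, with Benjamini-Hochberg adjustment and a threshold of 0.05 (R 4.3.3, limma 3.58.1). Time contrasts used the 48 libraries of a tissue, tissue contrasts all 96 and genotype contrasts the 16 of a time-point, each without a cow block. The script was tested on simulated data. Per-cow values were log2(CPM + 1), compared by exact permutation tests (Python 3.11.15, numpy 2.4.6, pandas 2.3.3, scipy 1.17.1, figures with matplotlib 3.10.9), and correlations used 100000 resamples, whose smallest possible p is 1e-05. Alternatives were RLE factors, no gene filter, DESeq2 1.42.0, a common dispersion, the cow as a block, each cow left out, another pseudocount, CPM without logs, and leaving out batch B. Batch B is the 13 libraries (8 of liver, 5 of muscle) in which most of 19 rarely counted genes had 10 or more counts. It was inferred from these counts and is not in the sample labels, and what sets these libraries apart was not tested.

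A replicate number is a cow, so numbers pair the libraries across time-points and tissues. Within a tissue, deviations of the same cow at 2 time-points correlated above 0.1 in 39 of 48 liver pairs (median r 0.235, lowest -0.254). In muscle 42 of 48 pairs did (median r 0.258, lowest 0.0617). Pairs of different cows were not computed, so these values do not test the pairing. Of 336 library pairs within a group, none held the same counts. The median library total was 20466944 in liver and 17612182 in muscle.

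The 3 genes and all lists were chosen with earlier results of these data known. Symbols came from the study's supplementary gene lists and cover 2149 of 24616 identifiers, so that the pathway lists were matched in part (1 of 7 supply genes, 5 of 13 elongation and desaturation genes, 6 of 11 activation and esterification genes, 2 of 14 regulators, 6 of 15 sterol genes and 7 of 12 oxidation and ketogenesis genes). Marker lists matched 4 of 8 adipocyte, 6 of 6 hepatocyte, 8 of 8 skeletal muscle, 2 of 4 erythroid and 2 of 6 leukocyte symbols. From each list at most the 4 genes of smallest p in a comparison are named, and for likeness the 8 highest; a few listed genes are not reported here. Sequences, coordinates and promoter motifs were not analysed here.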

Additional observations from a re-analysis of the deposited data

Results flagged for a closer look

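Changes between time-points differed between liver and muscle of the same cows in 4 cases, each by a test of the difference itself in edgeR's quasi-likelihood fit over all 96 libraries. From EL to ML the liver change exceeded the muscle change by 1.21 for FASN, 0.85 for ACACA and 1.54 for ACSS2 on the log2 scale. Within cows the liver change was the larger in 12, 12 and 13 of 16 cows (mean differences 1.34, 0.82 and 1.82, adjusted exact p = 0.0114, 0.00297 and 0.00518). From LP to EL the liver change of ACACA was lower than the muscle change by -0.72, and was so in 12 of 16 cows (mean difference -0.58, adjusted exact p = 0.0291). Scaling by library totals alone moved the median of all genes by 0.43 in the first comparison and by -0.30 in the second, and the values became 1.68, 1.27, 1.97 and -1.04, with the same calls. No cow stood apart from the rest of its group by Dixon's criterion in any of the 36 groups of 8 cows tested, where chance would flag about 1 in 20.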

How the results depend on the processing

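The rise of all 3 genes in liver from EL to ML kept its direction and its call under RLE factors, no gene filter, DESeq2, the replicate block, batch B left out, cows 426 and 996 left out, and each cow left out. In the muscle time course, leaving out each cow changed no call of the 3 genes and moved no count of genes by over 1.5 times. Leaving out cows 426 and 996 and, for the model fits, scaling by library totals alone were chosen after seeing the data. Unless a construction shows it (fewer samples or more genes tested), the cause of a change was not tested.

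With the replicate block, ACACA in liver from LP to ML became 0.61, ACSS2 in muscle from LP to ML 0.25 and the tissue difference of ACSS2 from LP to EL -1.09, all called; the muscle genes called from LP to ML became 1190 in place of 771 and the muscle interaction genes 2 in place of 1. The block changed no other call.

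On library totals alone, muscle FASN (0.32) and ACSS2 (0.49) became called from LP to EL, FASN with its sign reversed, and from EL to ML FASN was 0.068, ACACA -0.38 and ACSS2 -0.30, the last 2 reversed. ACACA from LP to ML was 0.31. The within-cow muscle means were 0.28 (FASN) and 0.45 (ACSS2) from LP to EL and 0.076 (FASN), -0.32 (ACACA) and -0.26 (ACSS2) from EL to ML, and the tissue difference of FASN was -1.02 from LP to EL and 0.78 from LP to ML. By the fit the tissue difference from LP to EL was -1.01 for FASN and -1.37 for ACSS2, and 5656 and 7876 genes differed between tissues from LP to EL and from EL to ML. The interaction genes became 100 in liver from LP to EL, and 0 from LP to EL and 1 from EL to ML in muscle.

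Without cows 426 and 996, ACACA in liver from LP to ML was 0.64 and the tissue difference of ACSS2 from LP to EL -1.29, both called. The within-cow mean of FASN from LP to EL was -1.01 in liver and -0.90 for liver minus muscle, that of ACACA for liver minus muscle -0.57, no longer called, and that of ACSS2 from LP to ML 0.80; FASN and ACACA in liver at LP gave r = 0.82. The liver genes called from LP to EL became 1112, and the muscle interaction and EL genotype genes 0. With the block as well, liver FASN and ACSS2 from LP to EL were -1.11 and -1.37, liver ACACA and muscle ACSS2 from LP to ML 0.67 and 0.26, all called, with 1418 liver genes from LP to EL and 0 muscle interaction genes.

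Without a gene filter, FASN in liver from LP to ML (0.99), ACSS2 in liver over muscle at ML (0.60) and the tissue difference of ACACA from LP to EL (-0.64) were no longer called, and 297 liver genes were called from LP to EL. Without batch B, that tissue difference of ACACA was -0.65 and not called, r was 0.57 for FASN and ACACA in liver at EL and 0.65 for ACACA and adipocyte markers in muscle at LP, neither called, and 0 liver genes from LP to EL, 0 muscle interaction genes and 0 muscle EL genotype genes passed. DESeq2 called 5 liver interaction genes from LP to EL, 14 and 10 muscle ones from LP to EL and EL to ML, and 6 and 65 genotype genes in liver at EL and ML and 27, 119 and 10 in muscle at LP, EL and ML. With a common dispersion the exact test gave 0.84, 0.71 and 0.91 for FASN, ACACA and ACSS2 in liver at ML, 3 called in place of 0, and at LP, EL and ML the liver gave 306, 301 and 279 genes and the muscle 214, 438 and 214.

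On CPM without logs, the within-cow means for liver minus muscle became 27.4 CPM for FASN and 27.4 CPM for ACSS2 from LP to ML, both called, and -10.6 CPM for ACACA and -24.2 CPM for ACSS2 from LP to EL, neither called; liver ACACA from LP to ML (15.1 CPM) and ACSS2 from LP to EL (-21.2 CPM) were not called. Then r was 0.55 for ACACA and ACSS2 in liver at LP, 0.63 for FASN and ACACA in liver at EL and 0.46 for ACACA and adipocyte markers in muscle at LP, none called, and 3 relations were called in all.

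Leaving out each cow, liver genes called from LP to EL ranged from 5 (without cow 164) to 1086 (without cow 426) and from LP to ML from 1012 (without cow 426) to 2095 (without cow 996); FASN from LP to ML ranged from 0.83 to 1.10 and ACACA from 0.41 (without cow 1000) to 0.66 (without cow 996). Genotype genes in muscle ranged from 0 to 4 at LP (without cow 982), 0 to 7 at EL (without cows 1179 and 1000) and 0 to 2 at ML (without cow 426).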
